A study of Mus musculus with 4 samples.

Results

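CpG-poor low-methylated distal windows are short stretches of the mouse genome in which few CpGs occur and DNA methylation dips between methylated neighbours. The genome was divided into 1 kb windows, and an autosomal window was taken when it held 5 to 20 listed CpG positions, at least 10 reads in each of the 4 libraries, and a mean level over the libraries of 10% to under 50%. It also had to lie 3 kb or more from any window with 40 or more CpG positions, which keeps it away from CpG islands, and both windows at 2 kb distance had to be at 60% or higher. These conditions held for 24297 windows, which were 1.71% of the 1424418 windows with 5 to 20 CpGs and enough reads, called CpG-poor windows below, and 1.59% of all 1525913 windows that could be tested. The level of a window is the share of its methylated reads among all its C or T reads. The windows were thus selected on the mean of the libraries' methylation levels, in them and in their neighbours. Because of that choice, the depth of the dip is a description, whereas the difference between groups within it was not used to choose windows. Where 1 group lay above 50%, however, a window could enter only if the other group was lower.

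The libraries are whole-genome bisulfite libraries of mouse embryonic stem cells whose Ogt alleles are floxed (Ogt fl/fl) in both groups. The 2 Ogt iKO libraries come from cells cultured with 4-OHT, the tamoxifen derivative used to switch on inducible Cre, for 6 days and sorted for the YFP reporter. The 2 control libraries come from Ogt fl/fl cells kept without 4-OHT for the same 6 days. All cells grew on mitomycin C-treated embryonic fibroblasts with LIF and serum replacement, and sorting for viable cells removed those feeders. Loss of Ogt, exposure to the drug and selection for the reporter therefore coincide and cannot be told apart, and the labels do not say whether replicates are separate cultures, so p-values measure only the spread between these libraries. The labels do not name the Cre line, and transcript levels and the Ogt deletion itself were not analysed here.

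In differentiated and stem cells alike, most CpGs outside CpG islands are methylated, and short CpG-poor dips in that landscape are known to occur where transcription factors bind, often at distal enhancers. Methylation in such dips is thought to be turned over by the TET dioxygenases, which oxidise 5-methylcytosine to 5-hydroxymethylcytosine. OGT, the enzyme that places O-GlcNAc on nuclear and cytosolic proteins, is a known partner of TET1, and the study asks how its loss alters these marks. Bisulfite conversion reads 5-methylcytosine and 5-hydroxymethylcytosine alike, so a level below is the sum of both. The windows were not compared with chromatin data and are therefore called low-methylated distal windows here, not enhancers.

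Over the autosomes the libraries held 62619936 to 77842967 reads at CpGs, or 3.40 to 4.11 reads per listed CpG. A low-methylated distal window held a median of 12 CpGs (interquartile range 9 to 16). Its median depth was 45 and 39 reads in the iKO replicates and 38 and 36 in the controls. The median of the mean levels was 40.6%, with quartiles of 32.0% and 46.0%, so that most windows lay in the upper part of the range allowed. Reads per CpG were slightly fewer in the windows (3.93, 3.51, 3.42 and 3.23 in the same order) than in the windows 2 kb away (4.12, 3.68, 3.59 and 3.36), and the part of coverage in the results was not tested.

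Few windows coincided with a promoter. In the RefSeq promoter table of GRCm38.p6, which lists 250 bases before and 50 bases after each start, 491 promoters lay wholly inside 444 windows, and 207 of them belong to protein-coding genes and 284 to long non-coding RNAs. The median number of CG dinucleotides in these promoters was 5, against 7 in all 31396 promoters of the table. To show what such CpG-poor sequence looks like, the 250 bases before the start are printed for 4 of them, 5′ to 3′ on the gene's strand, with every CG in capitals. Gstm6 (a glutathione S-transferase of the mu class; chr3:107943735-107943984, minus strand) and Ablim1 (an actin-binding LIM protein; chr19:57274669-57274918, minus strand) had the largest decreases among protein-coding promoters with at least 40 reads in every library. Zfp111 (a zinc-finger protein; chr7:24208150-24208399, minus strand) had the smallest difference, and Lifr (the receptor subunit through which LIF maintains stem cells; chr15:7140292-7140541, plus strand) is the pluripotency gene with a promoter inside such a window.
Gstm6: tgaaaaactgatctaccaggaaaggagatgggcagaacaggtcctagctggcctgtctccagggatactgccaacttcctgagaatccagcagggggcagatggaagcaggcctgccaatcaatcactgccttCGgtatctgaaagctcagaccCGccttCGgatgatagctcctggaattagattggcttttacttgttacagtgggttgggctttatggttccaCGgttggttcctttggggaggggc
Ablim1: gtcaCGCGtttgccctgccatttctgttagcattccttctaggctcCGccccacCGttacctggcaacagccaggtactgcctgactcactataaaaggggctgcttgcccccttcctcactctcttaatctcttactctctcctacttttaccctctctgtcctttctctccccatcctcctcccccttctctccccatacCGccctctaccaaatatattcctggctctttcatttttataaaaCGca
Zfp111: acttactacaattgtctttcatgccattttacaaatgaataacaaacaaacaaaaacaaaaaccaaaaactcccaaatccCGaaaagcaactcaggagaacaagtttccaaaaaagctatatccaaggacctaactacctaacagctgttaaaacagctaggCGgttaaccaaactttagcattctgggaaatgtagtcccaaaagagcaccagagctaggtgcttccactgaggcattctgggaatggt
Lifr: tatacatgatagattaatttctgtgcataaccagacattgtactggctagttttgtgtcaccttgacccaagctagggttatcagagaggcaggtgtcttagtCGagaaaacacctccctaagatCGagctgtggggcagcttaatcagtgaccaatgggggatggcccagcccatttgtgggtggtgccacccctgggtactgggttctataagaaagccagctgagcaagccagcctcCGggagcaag

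The windows around these 4 promoters did not all differ between groups. The Gstm6 window was at 30.8% and 23.8% in the iKO libraries and at 66.7% and 59.4% in the controls, and it is the only promoter window that passed the test across all windows (limma-moderated quasi-binomial model, Benjamini-Hochberg adjusted p = 0.0333), a call lost in 8 of 11 alternatives. The Ablim1 window was at 24.1% and 15.0% in the iKO and at 45.5% and 50.9% in the controls, with no overlap but an adjusted p of 0.0690 in the same model. The Zfp111 window was at 17.4% and 21.5% in the iKO and at 20% and 18.8% in the controls, so the groups overlapped. The Lifr window, on 15 to 31 reads, was at 33.3% and 29.4% in the iKO and at 76.7% and 38.7% in the controls, and its control replicates lay further apart than control replicate 2 lay from the iKO. Over the 444 promoter windows, both iKO libraries lay below both controls in 174 (39.2%) and above in 25, with a median difference of -7.89 percentage points. Of all tested windows 41.6% had both iKO libraries below and 4% above. The share of promoter windows below was thus not beyond that background, while the 25 of 444 above were a slightly larger share than 4%.

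Short motifs were counted on both strands of the same 300 bases, and a match is only a match of letters. The octamer ATGCAAAT, bound by POU factors, occurred in 3.46% of the promoters inside low-methylated distal windows and in 1.75% of all promoters of the table. The orphan nuclear receptor half-site AAGGTCA, the type of site ESRRB binds, occurred in 5.09% against 4.69%, and the KLF-type CACC box CCACACCC in 4.68% against 3.57%. The GC box GGGCGG occurred in 19.8% against 36.0%, the E-box CACGTG in 4.48% against 7.14%, and TATAAA in 11.6% against 13.6%. The 2 letter strings that contain CG were the ones with the clearest deficit, in promoters that hold few CGs.

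The windows also held 18 miRNA hairpins of the RefSeq table, in 13 windows. One window, chr3:127545001-127546000, holds the hairpins of the miR-302 to miR-367 cluster, which is transcribed in pluripotent cells and belongs to the best known miRNAs of that state. The mature 3p products listed for it are printed with the seed, bases 2 to 8, in capitals, because the seed decides which messages a miRNA recognises.
miR-302b-3p: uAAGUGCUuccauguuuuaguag
miR-302c-3p: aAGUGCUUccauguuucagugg
miR-302d-3p: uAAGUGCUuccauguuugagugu
miR-367-3p: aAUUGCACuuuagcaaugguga
The products of miR-302b and miR-302d share the seed AAGUGCU, that of miR-302c as listed has AGUGCUU, and that of miR-367 has AUUGCAC. This window was near the lower bound in both groups: 11.8% and 11.1% in the iKO and 10.7% and 7.84% in the controls, on 34 to 63 reads (12 CpGs). Both iKO libraries lay above both controls, by 2.16 points in the mean, with an adjusted p of 0.888. Of the 13 hairpin windows, 7 had both iKO libraries below both controls, 1 had both above, none was called, and the median difference was -9.40 points. Among all tested windows 41.6% lay below in this sense and 4% above, and 13 windows are too few to tell from that share. The largest difference was at Mir1928 (22.7% and 13.6% against 44.7% and 48.1%), with an adjusted p of 0.0684.

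Methylation of the low-methylated distal windows was lower in the Ogt iKO. The mean level over the 24297 windows was 34.4% and 31.9% in iKO replicates 1 and 2, against 42.0% and 43.7% in control replicates 1 and 2. The groups did not overlap, with means of 33.1% ± 1.81 and 42.9% ± 1.25 (SD, n = 2 each). The difference was -9.72 points, where the pooled SD is 1.55 points, and the iKO mean was thus lower by 22.7% of the control level. The 2-sided exact permutation test gave p = 0.3333, the smallest p that the 6 arrangements of 4 libraries allow.

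The neighbourhood was lower by nearly the same number of points. The windows 2 kb away were at 71.1% and 68.8% in the iKO and 77.1% and 80.8% in the controls, with means of 69.9% ± 1.68 and 79.0% ± 2.63 (SD, n = 2 each). They were apart by -9.02 points or 11.4% of the control level. The depth of the dip, the level of a window minus that of its neighbours, was -36.7 and -36.9 points in the iKO and -35.1 and -37.1 in the controls. These values overlap, and their difference of -0.695 points was smaller than the pooled SD of 0.975 (p = 1, exact permutation). As a ratio the groups separated. A window was at 0.484 and 0.463 of its neighbours' level in the iKO and at 0.544 and 0.541 in the controls, a difference of -0.0691 where the pooled SD is 0.0103 (p = 0.3333 by exact permutation, the smallest possible). On a log odds scale the dip differed by 0.0665, less than the pooled SD of 0.0758 (p = 1, exact permutation). Whether the dips differed more than their surroundings thus depends on the scale: in points and in log odds the groups could not be separated at this replication, and in relative terms they did not overlap. Some alternatives did separate them: in log odds at 20 or more reads (0.0791), with reads pooled (0.0773), without control replicate 1 (0.142) and, with the opposite sign, without control replicate 2 (-0.00928). In points they separated with neighbours at 70% or higher (-1.65) and without control replicate 2 (-1.67), each of these at the smallest exact permutation p the libraries allow.

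**Figure D1:**
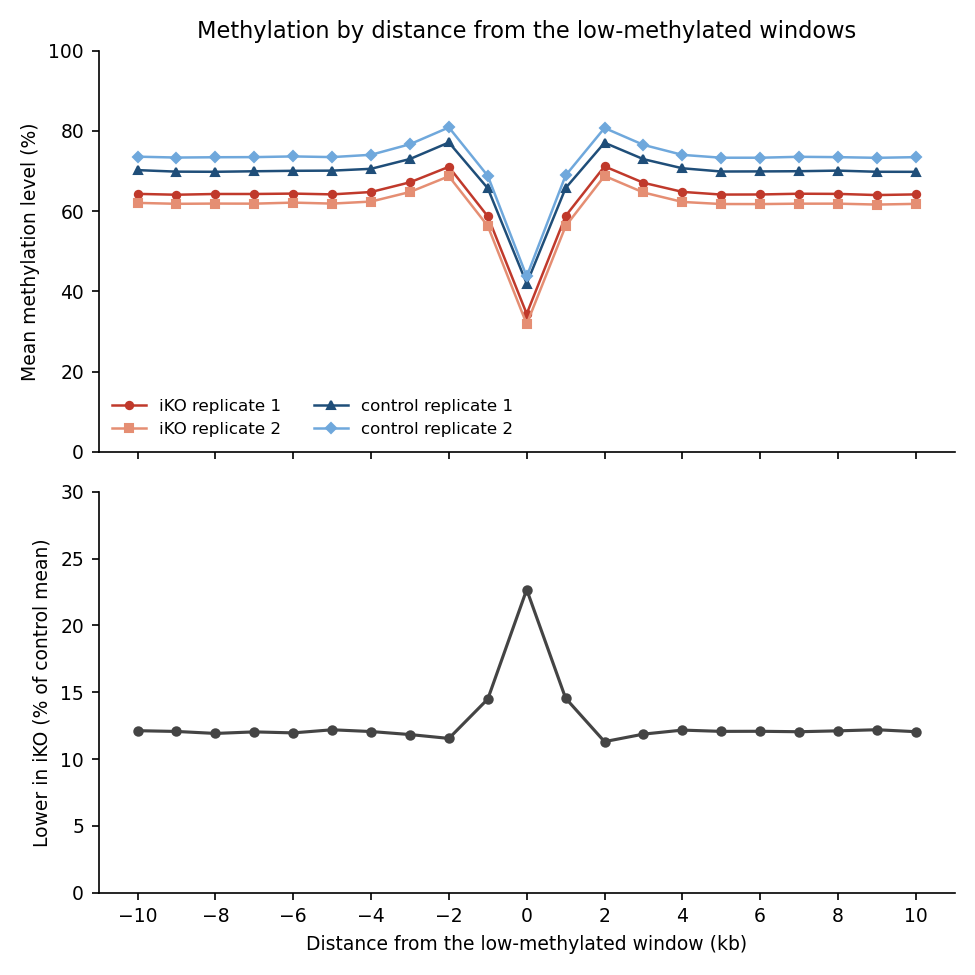
The upper panel plots the mean methylation level (%) of 1 kb windows against their distance (kb) from a low-methylated distal window, with 1 line per library; the lower panel plots how much lower the iKO mean was, in % of the control mean. The iKO lines run below the control lines at every distance, and the relative difference is 22.7% at 0 kb, 14.5% to 14.6% at 1 kb on either side and 11.3% to 12.2% from 2 kb outwards.

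The profile around the windows shows how local the relative difference was. At 10 kb upstream the level was 63.2% in the iKO and 71.9% in the controls, a decrease by 12.1% of the control level. From there to 2 kb the decrease stayed between 11.3% and 12.2% on either side. It was 14.5% and 14.6% in the windows directly beside, and 22.7% in the windows themselves. In points the difference changed little: -8.72 at 10 kb upstream, -9.75 and -9.80 directly beside, and -9.72 in the windows themselves. In bins of 200 bp the level was lowest in the bins on either side of the centre, at 31.6% against 41.4% and at 31.5% against 41.5%, lower by 23.8% and 24.1%. The neighbours at 2 kb stand above the more distant windows because the choice demanded at least 60% there.

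The relative difference followed the methylation level, in these windows and in others. Among the low-methylated distal windows at a mean level of 10% to 20% (1695 windows) the iKO mean was 13.3% and the control mean 18.2%, lower by 26.5% of the control level. The decrease was 25.4% at 20% to 30%, 23.6% at 30% to 40%, and 21.7% at 40% to 50%, where 12658 windows had means of 40.03% and 51.1%. All CpG-poor windows gave 30.2%, 28.1%, 25.5% and 22.4% in the same 4 classes and 18.8%, 14.5%, 10.5%, 7.001% and 3.51% in the classes from 50% to 100%. Below 10%, where no low-methylated distal window lies, they gave 29.8%, slightly less than at 10% to 20%. At the same level, then, the low-methylated distal windows differed by less of their control level than CpG-poor windows in general did. These classes are descriptions, since the mean of the same 4 libraries sorted the windows.

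**Figure D2:**
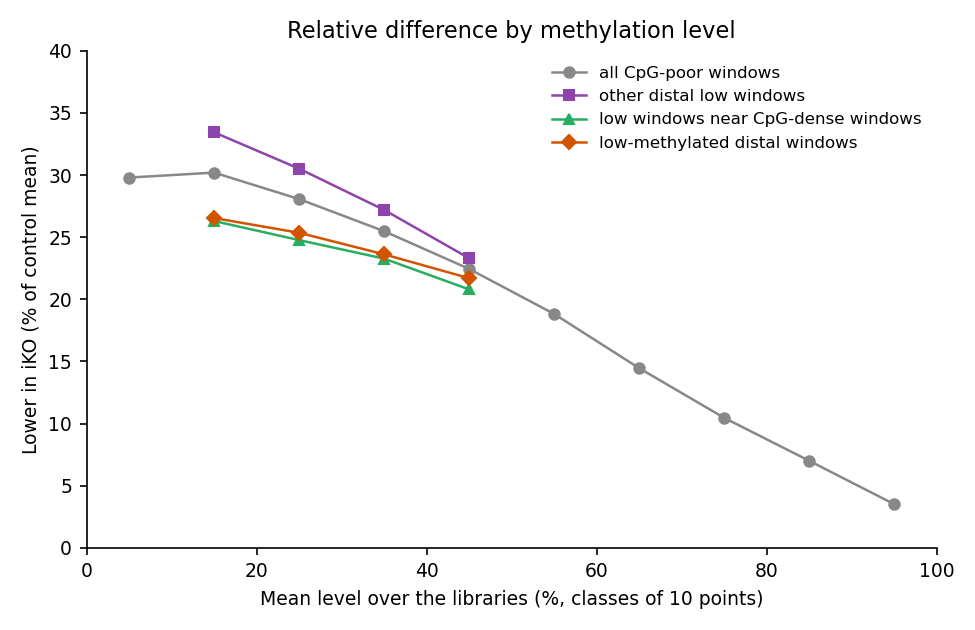
Decrease in the iKO, in % of the control mean, against the mean level over the libraries in classes of 10 points, for 4 sets of 1 kb windows. From the class of 10% to 20% on, all sets decline from left to right, and the low-methylated distal windows (26.5% to 21.7%) run with the low windows near CpG-dense windows and below the other distal low windows (33.4% to 23.3%).

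Other windows within the same bounds of CpG number and level were the closest comparison. The 12367 low windows that lie within 3 kb of a CpG-dense window were at 28.3% ± 0.630 in the iKO and 36.6% ± 1.27 in the controls (SD, n = 2 each), also lower by 22.7%. The ratio of the low-methylated distal windows to these was 1.196 and 1.143 in the iKO and 1.174 and 1.165 in the controls, so the groups overlapped, with a difference of -0.000378 (exact permutation p = 1). The sets differ in their mix of levels, with 2326 of the 12367 at 10% to 20% against 1695 of the 24297. Class by class, the windows near CpG-dense windows were lower by 26.3%, 24.8%, 23.3% and 20.8%, each slightly less than the 26.5%, 25.4%, 23.6% and 21.7% given above, as a description. The sign of this ratio's difference turned in 5 of 14 alternatives, named in the closing section.

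Distal low windows that did not meet the condition on both neighbours differed more. The 41330 other distal CpG-poor low windows were at 30.7% ± 1.60 in the iKO and 41.3% ± 1.37 in the controls (SD, n = 2 each), lower by 10.6 points or 25.7%. The ratio of the low-methylated distal windows to these was 1.083 and 1.079 in the iKO and 1.041 and 1.035 in the controls. The difference of 0.0428 exceeded the pooled SD of 0.00347 and kept its sign in all 14 alternatives tried, between 0.0320 and 0.0579 (p = 0.3333 by exact permutation, the smallest possible). This comparison, like that in log odds, was added after the values were seen. The split uses the neighbours' mean over all libraries, which a larger decrease in the iKO lowers. The larger difference in the other set may therefore follow in part from the choice, and it is a description.

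**Figure D3:**
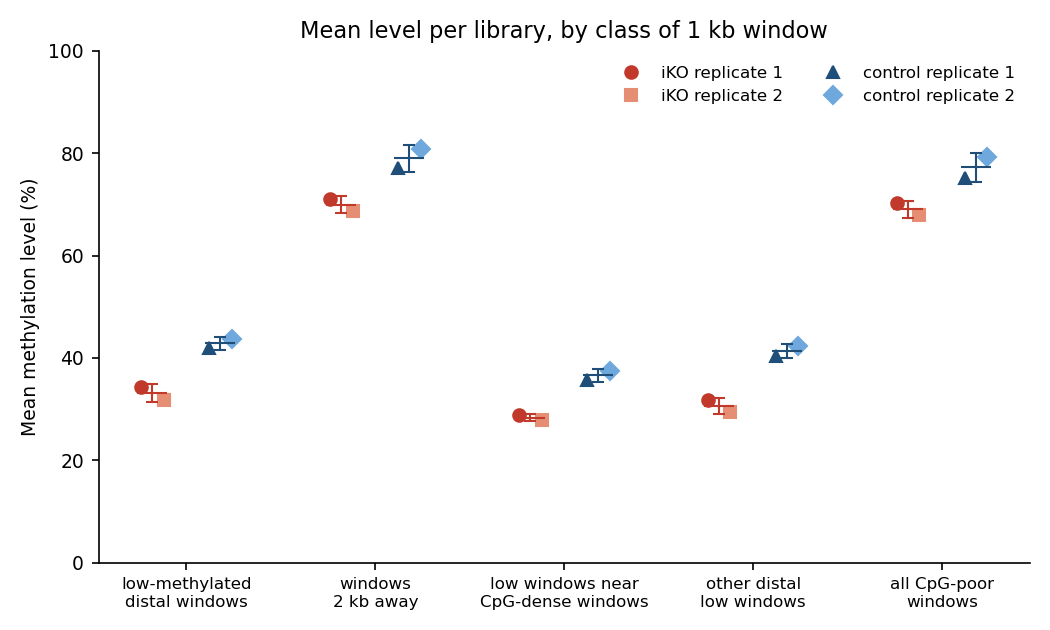
Mean methylation level (%) of each library for 5 classes of 1 kb window; points are libraries, and the horizontal bars with whiskers are group means ± SD (n = 2). In every class both iKO libraries lie below both controls, at 31.9% to 34.4% against 42.0% to 43.7% in the low-methylated distal windows.

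A window chosen for a low level on few reads is in part low by counting error, so the choice was repeated on a random 50% of the reads and the levels taken from the other. Of the 20259 windows so chosen, 15078 (74.4%) were again between 10% and 50% in the held-out reads, and 1226 (6.05%) were at 60% or higher. In the held-out reads the windows were at 35.8% ± 1.77 in the iKO and 45.8% ± 1.37 in the controls (SD, n = 2 each), lower by 9.96 points or 21.8%. Their neighbours were lower by 11.6%, and the ratio of window to neighbours differed by -0.0674. Against the full reads, the difference in the held-out ones was thus slightly larger in points (-9.72 in the full reads) and slightly smaller relative to the control level (22.7% in the full reads). The split was made on read counts per window, not on fragments. CpGs of 1 fragment could therefore fall in both parts, which are not independent.

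The decrease was found on every autosome. It ranged from -10.5 points on chromosome 6 to -8.93 points on chromosome 11, and both iKO libraries lay below both controls on 19 of 19 autosomes. Chromosome 2 held the most windows (1890) and chromosome 19 the fewest (732), and their share among CpG-poor windows ranged from 1.47% on chromosome 3 to 2.17% on chromosome 11. The number of CpGs made little difference: windows with 5 to 8 CpGs were lower by 21.7% of the control level, and those with 9 to 12, 13 to 16 and 17 to 20 by 22.97%, 22.8% and 23.3%. The windows formed 22692 runs, of which 21087 were single windows and 1605 were pairs of adjoining ones.

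Single CpGs could be compared only at deeper sites, which were fewer than the 24297 windows. At 4868 CpGs of the windows with at least 5 reads in every library, the share at 20% or lower was 39.4% and 43.0% in the iKO and 30.2% and 29.4% in the controls. The share at 80% or higher was 9.55% and 8.89% in the iKO and 16.6% and 21.96% in the controls. The share in between overlapped between groups, at 51.1% and 48.1% against 53.1% and 48.6%. In the windows 2 kb away (11075 CpGs) every share separated. The intermediate one was 49.5% and 50.9% in the iKO against 37.7% and 29.2% in the controls. The share at 80% or higher was 48.3% and 45.5% against 60.9% and 69.99%. That at 20% or lower was small, at 2.23% and 3.68% against 1.34% and 0.822%. Among these deeper CpGs it was thus the lowest class that held more in the iKO within the low-methylated windows. In their neighbours it was mainly the intermediate one. At 5 reads a CpG can only take coarse values, which sets these shares in part.

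Single windows mostly moved with the mean. The median difference was -9.58 points, with the 5th and 95th percentiles at -29.1 and 9.18, and 19549 windows (80.5%) were lower in the iKO. Among all tested windows nearly the same share, 80.2%, was lower, with a median of -7.86 points. Large decreases were more frequent: 4455 windows (18.3%) were lower by 20 points or more, against 10.97% of all tested windows. The bound on the mean level can let such a window in through low iKO libraries, so this excess is a description. Increases of 10 points or more occurred in 4.38%, against 2.996%. The average SD between replicates of a window was 9.96 points in the iKO and 11.3 in the controls, where counting error alone gives 7.93 and 8.41. At this depth the difference of a typical window was smaller than the spread between its replicates.

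**Figure D4:**
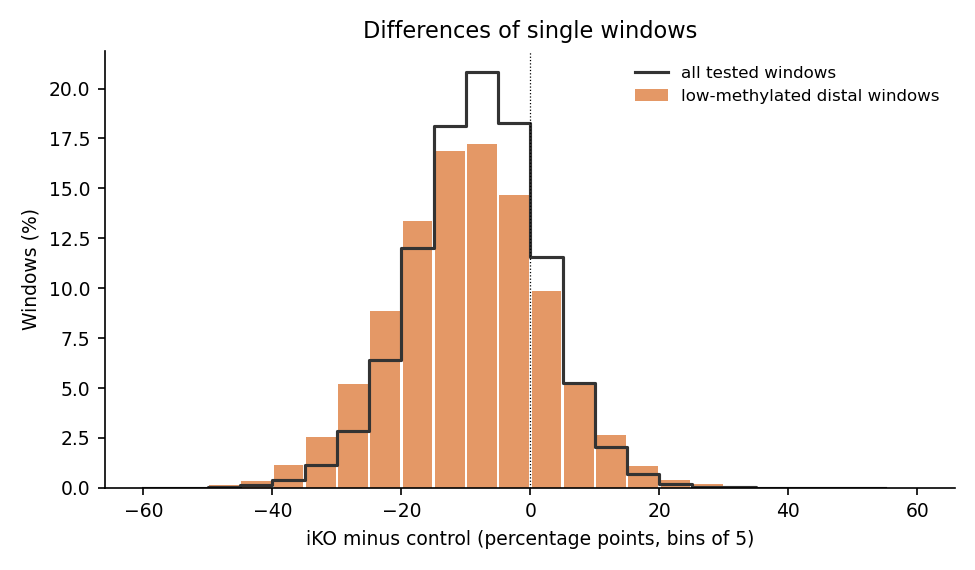
Share of windows (%) by iKO minus control difference (percentage points, bins of 5), for the low-methylated distal windows (bars) and all tested windows (line). Both lie mostly below 0, and the low-methylated distal windows are spread more widely around a median of -9.58 against -7.86.

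Each window was tested with a logistic model of methylated and total reads with a moderated dispersion (limma-moderated quasi-binomial model, Benjamini-Hochberg adjusted over all 1525913 windows). Calls needed an adjusted p under 0.05 together with 10 points or more between the group means. Of the low-methylated distal windows 77 were called lower (0.317%), where the background was 0.125% of all tested windows. The bound on the mean level can let a window in through low iKO libraries, so this excess is a description. None was called higher, where the background was 0.000393%. At an unadjusted p under 0.05, 4737 (19.5%) were lower against a background of 13.7%, and 129 (0.531%) were higher against 0.282%. The larger share of lower windows depended on the test, since limma on logit levels gave 9.77% against 10.5% of all tested windows. Both iKO libraries lay below both controls in 10599 (43.6%, background 41.6%) and above them in 1141 (4.70%, background 4%). The share called lower was 0.251% among low windows near CpG-dense windows and 0.445% among other distal low windows. For the alternative tests that follow, the share of all tested windows called is not given, so their counts have no background to be set against. The 77 calls do not outlast other tests: edgeR, limma on logit levels, a replicate block, a minimum of 20 reads and leaving out any of the 4 libraries each gave 0.

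The 77 called windows had a mean level of 20.6% in the iKO and 60.5% in the controls, with differences from -63.1 to -17.0 points and a median of -40.2. Their neighbours 2 kb away were at 69.0% and 79.7%. In all 77 the groups did not overlap, 62 had at least 30 reads in each library, and 44 overlapped a protein-coding gene. Since the calls were made on this difference, its size in them is a description. The windows with the largest decreases among the 62 are given next, each by its nearest protein-coding gene, with adjusted p-values from the same limma-moderated fit.

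The window in Polk, which encodes the translesion DNA polymerase kappa (chr13:96516001-96517000, 19 CpGs), was at 25% and 26.3% in the iKO and at 60.9% and 85.5% in the controls. The groups were far apart, the adjusted p of 0.00665 was the lowest of all 77, and 16 of its 19 CpGs were lower in the iKO. The window 10 kb from Lsm3, a subunit of the Lsm ring on U6 small nuclear RNA (chr6:91533001-91534000), was at 20% and 32.6% against 68.5% and 77.0% (adjusted p = 0.0134), and all 14 CpGs were lower. The window 29 kb from Azin1, an inhibitor of antizymes in polyamine metabolism (chr15:38457001-38458000), was at 8% and 17.2% against 55.6% and 63.6% (adjusted p = 0.0218). The neighbours 2 kb away were at 76.4% in the iKO and 82.3% in the controls at Polk, at 72.4% and 74.8% at Lsm3, and at 67.0% and 74.7% at Azin1. The controls of the Polk and Lsm3 windows thus reached the level of their neighbours in 1 replicate each, and a dip at all 3 was clear in the iKO.

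The window 127 kb from Pabpc6, a poly(A)-binding protein gene (chr17:9797001-9798000), differed in its surroundings. It was at 28.6% and 7.84% in the iKO and 60.4% and 70% in the controls (adjusted p = 0.0139), and its neighbours were at 55.0% in the iKO against 79.7% in the controls, so methylation was lower over the wider stretch. The window in Cmtm8, a MARVEL-domain protein gene (chr9:114823001-114824000), was at 16% and 31.0% against 67.4% and 72.2% (adjusted p = 0.0158), and its neighbours were at 80.4% in the iKO and 83.2% in the controls. The windows in Dlg2, a scaffold protein of synapses (chr7:91443001-91444000), and Srpk2, a kinase of splicing factors (chr5:23596001-23597000), had controls at 66.0% to 79.5% and iKO libraries at 23.6% to 29.7%. The window in Washc3, a subunit of the WASH complex (chr10:88227001-88228000), had iKO replicates as far apart as 38.0% and 6.67%, against 63.8% and 72.3%. Each of these 8 windows lost its call in 8 to 10 of 11 alternatives, with the difference below -30 points in each of them.

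Windows with many reads bound the error better. The 5 given here have the most reads in their shallowest library after 12 windows with over 5 times the median depth per CpG were left out, 2 of which were called lower. The window in Gm38510, a predicted gene (chr1:85305001-85306000), held 220 to 301 reads per library and was at 30.9% and 28.6% in the iKO and at 49.1% and 47.7% in the controls. Its replicates lay close together, and it was called (adjusted p = 0.0328 in the limma-moderated fit), but the call was lost in 10 of 11 alternatives. Without its CpGs deeper than 5 times the median the difference was -14.4 points with an adjusted p of 0.284. The window 61 kb from Axin2, a negative regulator and target of Wnt signalling (chr11:109012001-109013000), held 218 to 275 reads and was at 18.9% and 14.7% in the iKO and 14.0% and 18.2% in the controls. Its groups overlapped, with a difference of 0.69 points, while its neighbours were at 86.0% in the controls and 79.2% in the iKO. The window 1009.5 kb from Nmbr was at 19.9% and 39.6% in the iKO and 44.4% and 40.8% in the controls. That 146.6 kb from Zfp980 was at 17.9% and 21.0% against 22.1% and 25.4%. That 2.3 kb from Mrln was at 35.3% and 34.3% against 59.0% and 50.0%. The Nmbr, Zfp980 and Mrln windows held 122 to 216 reads and were not called. These windows thus ranged from a difference of -19.7 points at Mrln to none that could be seen at Axin2. Their depth is several times the median of 36 to 45 reads, and whether copies elsewhere in the genome add reads to them was not tested.

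Gene lists of known roles were compared next, counting windows whose nearest protein-coding gene is on the list at 100 kb or less. The list of naive pluripotency genes (45 genes) had 105 windows at 32 genes, with a mean level of 33.1% and 30.9% in the iKO and 42.0% and 44.7% in the controls. Both iKO libraries lay below both controls in 54 of the 105 (51.4%) and above in 5, the median difference was -12.0 points, and none was called. At an unadjusted p under 0.05, 28 of the 105 were lower, as were 12 of 73 windows of the formative and primed list, 13 of 55 of the lineage list, 3 of 32 of the fibroblast list and 6 of 23 of the O-GlcNAc and methylation list, where the background is 13.7% of all tested windows and 19.5% of the low-methylated distal ones. All tested windows had a median of -7.86 points and 41.6% with both iKO libraries lower, and all 24297 low-methylated distal windows had -9.58 points and 43.6%. The 32 windows at 15 of 24 fibroblast genes, a list for the feeder cells, had a median of -9.41 points, with 14 lower and none higher by the same measure.

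**Figure D5:**
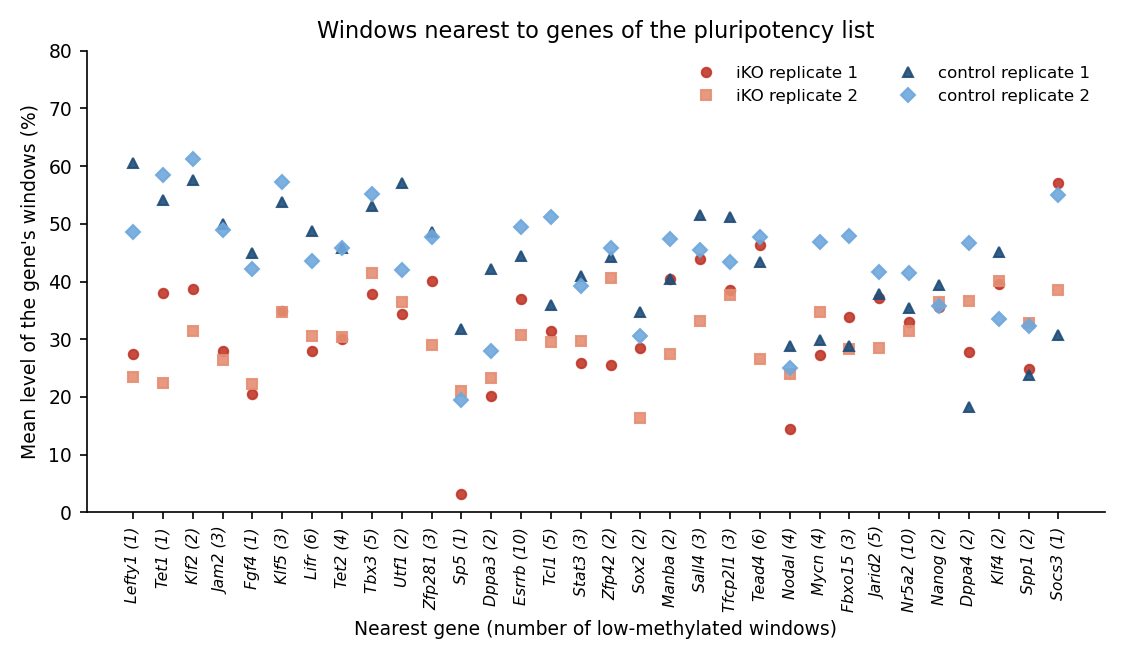
Mean methylation level (%) of each library over the low-methylated distal windows nearest to each of 32 genes of the naive pluripotency list; the number of windows stands in brackets, and genes are ordered by the difference. From Lefty1 to Zfp281 on the left both iKO libraries lie below both controls, and at Klf4, Spp1 and Socs3 on the right the groups overlap.

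Among genes that hold the naive state, the difference in the mean over a gene's windows ranged from clear to none. Esrrb, a nuclear receptor of the naive network, had 10 windows, with means of 36.9% and 30.7% in the iKO and 44.5% and 49.5% in the controls, and 7 of the 10 had both iKO libraries lower (background 41.6%). Klf2, a Krüppel-like factor, had 2 windows with means of 38.7% and 31.5% against 57.6% and 61.3%. Klf5, of the same family, had 3 windows with means of 34.96% and 34.8% against 53.9% and 57.3%. Both genes lay among the larger decreases. Their control means were above the upper bound of 50%, so at least some of these windows entered through low iKO levels. Klf4 was not among the larger decreases: its 2 windows had means of 39.6% and 40.01% against 45.2% and 33.5%, overlapping. Of these 2 windows, 1 had both iKO libraries lower and 1 had both higher. Nanog, the homeobox factor of the naive state, had 2 windows with means of 35.7% and 36.5% against 39.4% and 35.7%, also overlapping. Here too 1 window had both iKO libraries lower and 1 had both higher. Sox2, a partner of OCT4, had 2 windows at 28.5% and 16.3% against 34.7% and 30.5%. The levels at these genes are means over their windows and are no measure of their expression.

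Signalling genes of the same list, picked after their values were seen, are given next, and none of their windows was called. The 6 windows at Lifr had means of 28.0% and 30.7% in the iKO and 48.7% and 43.6% in the controls, with both iKO libraries lower in 5 of 6 (background 41.6%). The one with most reads in its shallowest library, chr15:7144001-7145000 inside Lifr, was at 28.8% and 43.3% against 28.3% and 38.5%. Stat3, the transcription factor downstream of LIF, had 3 windows at 26.0% and 29.6% against 41.0% and 39.2%. Socs3, the inhibitor of that pathway, had 1 window at 57.1% and 38.6% against 30.8% and 55.0%, where the replicates differed more than the groups. Lefty1, an inhibitor of Nodal, had 1 window at 27.5% and 23.4% against 60.6% and 48.6%, on 33 to 51 reads. Nodal itself had 4 windows at 14.5% and 24.02% against 28.8% and 25.1%, and Spp1, which encodes the secreted protein osteopontin, had 2 at 24.8% and 32.9% against 23.8% and 32.3%. Fgf4, the growth factor that pushes cells out of the naive state, had 1 window at 20.5% and 22.2% against 45.0% and 42.1%. Outside signalling, Jam2, a junctional adhesion molecule, had 3 windows at 27.9% and 26.4% against 49.9% and 48.9%, and all 3 had both iKO libraries lower.

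Genes of the O-GlcNAc cycle and of DNA methylation itself had few such windows, 23 at 8 of 19 genes, with a median difference of -9.41 points; 11 (47.8%) had both iKO libraries lower, near the 41.6% of all tested windows, and 1 had both higher. Oga encodes the enzyme that removes O-GlcNAc. Its only window, chr19:45757001-45758000 inside the gene, was at 27.3% and 27.3% in the iKO and 72.2% and 57.1% in the controls, on 11 to 22 reads over 5 CpGs, and the adjusted p was 0.2496 in the limma-moderated fit. Tet1 encodes the dioxygenase that binds OGT. The window inside it, chr10:62833001-62834000, was at 38.0% and 22.4% against 54.1% and 58.5%, on 61 to 79 reads, with 15 of 16 CpGs lower and an adjusted p of 0.130 in the same fit. Tet2 had 4 windows at 30.04% and 30.4% against 45.8% and 45.8%, and Tet3 had 2 at 29.0% and 24.6% against 45.4% and 35.3%. Dnmt3a, a de novo methyltransferase, had 9 windows at 38.8% and 36.2% against 45.7% and 39.9%, with both iKO libraries lower in 2 and higher in 1. Uap1, of UDP-GlcNAc synthesis, had 1 window at 25% and 36.4% against 51.4% and 42.9%. The means overlapped at the remaining genes. Gfpt2 had 4 windows at 33.14% and 32.7% against 33.06% and 48.2%, and Dnmt3b had 1 at 40.6% and 48.4% against 37.2% and 63.3%. At the TET genes, then, the iKO means were the lower ones, and none of these windows passed the test.

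Genes of the formative and primed states had 73 windows at 16 of 18 genes, with a median difference of -7.11 points; 26 (35.6%, where the background is 41.6%) had both iKO libraries lower, 3 had both higher (background 4%), and 1 was called (background 0.125%). The called window lies in Zfp462, a zinc-finger gene that restrains lineage genes in stem cells (chr4:55041001-55042000). It was at 26.0% and 29.4% in the iKO and at 68.6% and 68.9% in the controls, on 50 to 61 reads, with all 11 CpGs lower (adjusted p = 0.0342 in the limma-moderated fit, lost in 9 of 11 alternatives). The 10 windows at Zfp462 together had means of 32.7% and 37.4% against 52.3% and 47.1%. Pou3f1, a POU factor of the primed state, had 6 windows whose iKO means were not lower, 41.1% and 44.2% against 37.8% and 41.0%. Lef1, a transcription factor of Wnt signalling, had 5 windows at 29.7% and 28.6% against 33.05% and 30.9%. Foxd3, a forkhead factor of the primed transition, had 3 windows at 18.8% and 30.8% against 47.6% and 55.8%.

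Lineage regulators, silent or low in stem cells as a rule, had 55 windows at 25 of 32 genes, with a median difference of -11.7 points; 30 (54.5%, where the background is 41.6%) had both iKO libraries lower, 2 had both higher, and none was called. Olig2, a regulator of the neural lineage, had 5 windows at 32.1% and 20.4% in the iKO and 46.2% and 55.7% in the controls, of which 4 had both iKO libraries lower. Gata4, an endoderm and heart factor, had 3 windows at 34.4% and 33.7% against 44.6% and 58.7%. Mesp1, a mesoderm factor, was the clearest case in the other direction: its window at chr7:79799001-79800000 was at 33.8% and 40.7% in the iKO and 27.8% and 21.4% in the controls, on 72 to 103 reads, with an adjusted p of 0.326 in the limma-moderated fit. Eomes, a T-box factor, had 5 windows whose means overlapped, 34.7% and 37.7% against 33.3% and 38.2%. The lists thus differed in their medians, from -7.11 to -12.0 points, and no test of that difference was made.

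The windows were spread over many nearest genes. In all, 9658 protein-coding genes were nearest to at least 1 window, 4306 of them to a single one and 202 to 10 or more. The genes with most windows were Magi1 with 34, Pde4d with 26, Auts2 and Mtus2 with 22 each, and Jarid2 with 20. Magi1, a scaffold protein of cell junctions, held 24 of its 34 windows inside the gene, and all 34 together were at 36.2% and 27.3% in the iKO and 41.2% and 47.3% in the controls. Pde4d, a phosphodiesterase that degrades cAMP, held all 26 inside, at 32.3% and 34.6% against 42.4% and 43.4%. Auts2, which works with Polycomb proteins in neurons, had the largest difference of the 5, at 27.5% and 29.5% against 43.8% and 50.0%, a decrease of 18.4 points, with both iKO libraries lower in 14 of 22 (background 41.6%). Jarid2, a subunit of the repressive Polycomb complex, had 1 window inside the gene and the rest outside, at 38.1% and 31.8% against 45.0% and 41.1%. The genes span 608 kb (Magi1), 1302 kb (Pde4d), 1106 kb (Auts2), 359 kb (Mtus2) and 191 kb (Jarid2).

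The windows lay nearer to genes than CpG-poor windows in general. A protein-coding gene overlapped 52.3% of them, against 47.2% of CpG-poor windows. Among the 23483 windows on chromosomes with listed starts, 621 (2.64%) held a transcription start, against 0.825% of CpG-poor windows. Listed starts cover 16457 of 20665 protein-coding genes, so windows with a start are undercounted and distances are upper limits. A further 26.2% lay under 10 kb from the nearest start, 47.0% at 10 to 50 kb and 24.2% at 50 kb or more, against 20.5%, 38.6% and 40.1%, and the median distance was 20711 bp against 34217 bp. The difference between groups hardly varied with position. Windows that held a start were lower by 21.6% of the control level, those under 10 kb by 22.9%, and those at 50 kb or more by 22.5%. Windows within genes were lower by 23.1% and those outside by 22.2%.

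Windows just inside and just outside the bounds show what the thresholds separate. Just below 10% lay windows in Spata16 (7.27% and 8.16% in the iKO, 17.1% and 7.35% in the controls) and in Sez6 (6.94% and 2.86%, 4.62% and 25.5%). Just inside lay windows near Spock2 (7.14% and 3.85%, 15.4% and 13.6%) and Agbl4 (6.94% and 11.5%, 12.5% and 9.09%). Just under 50% lay windows in Mbnl2 (53.2% and 48.4%, 42.9% and 55.6%) and Ypel2 (45.5% and 29.2%, 55.0% and 70.4%). Just above lay a window 109.3 kb from Ackr3, at 50% in all 4 libraries, and another 3.2 kb from Grid2ip (25% and 50%, 50% and 75%). Apart from Ackr3, the libraries of these windows lay on both sides of the bound.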

How the data were processed

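Whole-genome bisulfite libraries of 2 Ogt iKO and 2 control samples were analysed. The file names given by the authors show BSMAP alignment to mm10 and a methratio table of CG positions, and Picard is named in the submitters' processing notes; versions, filters and the handling of duplicates are not given in the sources used here. Per the file headers, the deposited columns are read counts (methylated and all C or T reads, and opposite-strand reads), an expected count (C or T reads scaled to discount C/T variants, used in 1 alternative) and the level as a fraction, not used. Both strands of a CpG are merged. A deposited table was matched to its sample by the genotype and replicate number in its name.

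Counts were summed into 1 kb windows, distances counted from start to start, with Python 3.11.15, NumPy 2.4.6, pandas 2.3.3 and PyArrow 21.0.0, and mean levels are unweighted over windows. Libraries were compared by 2-sided exact permutation tests (SciPy 1.17.1). Windows with 5 or more CpGs and 10 or more reads in each library were fitted in R 4.3.3 with limma 3.58.1; edgeR 4.0.16 served as an alternative. In simulated data over the 1525913 windows, with 200 changed, 4% of decreases of 30 points were called, 22% at 40, 36% at 50 and 74% at 60, with 9 false calls; these draws hold no shift of a whole library. With so few windows changed, the adjustment was stricter than in the real data, so these shares are no measure of the power there. Reads carry no molecular identifiers, and neighbouring CpGs share fragments.

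Gene spans, starts, promoters and miRNAs came from RefSeq tables of GRCm38.p6; the starts used cover 16457 of 20665 protein-coding genes and none on chromosome 18, whose windows are left out of distances to starts. All listed genes matched by symbol. The windows and lists were chosen with earlier results of these data known. Named windows are the 8 largest decreases among called windows with 30 or more reads, the 5 with most reads in the shallowest library once windows over 5 times the median depth per CpG are left out, those of list genes, those at the bounds, and the 5 genes nearest to most windows; genes named from a list and promoter and miRNA windows were picked after their values were seen.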

Additional observations from a re-analysis of the deposited data

How the results depend on the processing

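The mean difference of the low-methylated distal windows stayed negative in all 14 alternatives, from -11.0 to -8.44 points, and so did that of their ratio to the windows 2 kb away, from -0.0794 to -0.0589. The ratio to other distal low windows stayed above 0. The difference in depth of the dip turned to 0.438 points with a level range of 20% to under 40% and to 0.276 without control replicate 1, and ran from -1.67 to 0.276 with 1 library left out. Its difference in log odds ran from -0.00928, without control replicate 2, to 0.142. The ratio to low windows near CpG-dense windows turned to 0.00604 with neighbours at 70% or higher, 0.00528 with distances counted from edge to edge, and 0.00564 in the held-out reads (an alternative chosen after seeing the data). With 1 library left out it ran from -0.0271 to 0.0263, above 0 without iKO replicate 2 (0.0263) or control replicate 1 (0.00405).

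The 77 windows called lower (0.317%) fell to 19 (0.0827%) when reads were thinned to the shallowest library. A level range of 20% to under 40% held 9944 windows with 31 called and neighbours at 70% or higher held 12837 with 40 called, nearly the same share (0.312% each). The count was 0 with 20 reads in each library, limma on logit levels, edgeR and without any 1 of the libraries (iKO replicate 1, iKO replicate 2, control replicate 1 or control replicate 2), from 0 to 0. At an unadjusted p under 0.05 the windows lower in these fits were 1966 of 9690 (20.3%, against 15.2% of all tested windows in the same fit), 2375 of 24297 (9.77% against 10.5%) and 3385 (13.9% against 11.3%). With a library left out they were 2290 (9.43% against 6.62%, without iKO replicate 2) to 3357 (13.8% against 10.9%, without control replicate 1). With 1 library left out, its group's remaining library takes its spread from the other group. The share of all tested windows called in each alternative is not given here, so the counts of calls have no background. No alternative called a window higher. At an unadjusted p under 0.05, 43 of 9690 were higher with 20 reads (0.444% against 0.246% of all tested windows). Limma on logit levels gave 74 (0.305% against 0.387%), edgeR 84 (0.346% against 0.260%) and the replicate block 93 (0.383% against 0.192%). Whether replicate numbers pair the libraries is not known. Deviations of the same number correlated at -0.00723 over all tested windows and -0.0263 over the low-methylated ones, as a description. Deviations of single windows are in large part counting error, and a correlation leaves out shifts of a whole library. These values therefore cannot decide on pairing. With the replicate block the count was 0, with 3949 windows (16.3%, against 11.004% of all tested) lower at an unadjusted p under 0.05. In the simulation with 2 libraries a group, decreases of 30 points were called in 4% of changed windows with 20 or more reads in each library. Few windows were changed there, whereas 1905 windows were called lower in the real data. The Benjamini-Hochberg adjustment was therefore stricter in the simulation, and the 4% is no measure of the power of the real test.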
